A study of Mus musculus with 66 samples.

Results

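The nuclear receptor genes Nr1d1, Nr1d2, Rora and Rorb were examined in the ventral striatum of WT and iMSN-D2RKO mice over the day. These 4 genes were taken by symbol from 24138 gene rows, and each was read in all 66 distinct libraries. The libraries are poly(A) RNA-seq of nucleus accumbens punches from male mice of 3 to 5 months on the C57BL/6 background, kept in 12 h of light and 12 h of dark. The iMSN-D2RKO mice carry D2R flox/flox alleles with D1R-CRE+/-, so that Cre is driven by the D1R promoter and acts wherever that promoter has been active. They were bred from D2R flox/flox parents, and whether the WT mice carry floxed alleles without Cre is not spelled out in the sources used here. Mice of each genotype received saline or 20 mg/kg cocaine at zeitgeber time 3 (ZT3, with ZT0 at lights on) and were killed at ZT7, ZT11, ZT15, ZT19 or ZT23, or were taken at ZT3. The ZT3 libraries serve both treatments, which gives 22 groups of 3 libraries. Whether each library came from 1 mouse is not stated in the sources used here, so all p-values below measure only the spread between these libraries.

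REV-ERB alpha (Nr1d1) and REV-ERB beta (Nr1d2) are heme-binding repressors of the circadian clock. They sit on response elements called ROREs in genes such as Arntl, which encodes the activator BMAL1, and recruit the NCOR1 and HDAC3 co-repressor complex there. ROR alpha (Rora) and ROR beta (Rorb) bind the same elements as activators. BMAL1 in turn drives Nr1d1 and Nr1d2 through E-boxes, which closes a loop in which REV-ERB transcripts are highest late in the light phase and Arntl runs opposite to them. In the brain, Rora and Rorb are also strongly expressed in the thalamus and in parts of the cortex.

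Nr1d1 (XLOC_003970) spans chr11:98767932-98775333 on the minus strand of mm10, and Nr1d2 (XLOC_006462) spans chr14:18204054-18239127, also on the minus strand. Rora (XLOC_022039) lies at chr9:68653786-69388246 on the plus strand and Rorb (XLOC_010838) at chr19:18930605-19111196 on the minus strand. The end of Nr1d1 overlaps Thra, the thyroid hormone receptor alpha gene on the opposite strand, by 1075 bases, of which 263 are exonic in both. The sources used here do not say whether reads were counted by strand, so reads from the shared bases cannot be assigned with certainty to either gene, and Thra was the more abundant with a mean of 241 FPKM against 63.5 FPKM for Nr1d1.

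The promoters of the REV-ERB genes are shown because Nr1d1 is the member whose rhythm was called and Nr1d2 is its paralog. The Nr1d1 stretch ends just before the RefSeq transcript start and the Nr1d2 stretch stops 21 bases short of it, where those bases are annotated as exon and left out. Both are read 5′ to 3′ on the gene's strand and come from RefSeq on GRCm38.p6, the assembly behind mm10. Capitals mark the only match in each stretch to the motifs searched.
Nr1d1: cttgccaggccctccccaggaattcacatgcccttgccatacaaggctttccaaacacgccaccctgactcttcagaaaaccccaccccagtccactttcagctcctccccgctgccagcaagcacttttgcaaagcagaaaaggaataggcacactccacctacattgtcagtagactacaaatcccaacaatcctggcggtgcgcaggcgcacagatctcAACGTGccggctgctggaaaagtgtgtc
Nr1d2: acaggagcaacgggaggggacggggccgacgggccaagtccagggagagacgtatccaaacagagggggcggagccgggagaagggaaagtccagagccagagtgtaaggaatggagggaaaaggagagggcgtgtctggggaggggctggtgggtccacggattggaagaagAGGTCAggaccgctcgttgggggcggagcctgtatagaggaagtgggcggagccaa
The Nr1d1 stretch is chr11:98775378-98775627 (250 bases), and its match is the E-box variant CACGTT read on the opposite strand, from 28 to 23 bases before the start. The Nr1d2 stretch is chr14:18239128-18239356 (229 bases), and its match is the nuclear receptor site AGGTCA, from 77 to 72 bases before the start. Both strands of the 250 bases before each start were searched for the E-box CACGTG and its variant CACGTT, the nuclear receptor site AGGTCA, the RORE, both D-box forms (TTATGTAA as well as TTACGTAA) and the cAMP response element TGACGTCA. CACGTT occurred in 3.85% and AGGTCA in 14.0% of 32851 mouse promoters of that length, and the RORE, searched in a form that ends in AGGTCA or GGGTCA, in 0.332%. No listed motif was found in the searched window of Rora, and Rorb held CACGTT in 1 of its alternative promoters.

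Nr1d1 was the most abundant of the family at 63.5 ± 16.7 FPKM (SD over 66 libraries), rank 1270 of all genes by mean. FPKM are fragment counts scaled to transcript length and library size, so levels are compared between genes per length. Nr1d2 followed at 32.1 ± 10.3 FPKM, Rora at 7.05 ± 5.11 FPKM and Rorb at 2.23 ± 0.869 FPKM. Nr1d1 exceeded Nr1d2 in 64 of 66 libraries and Rora exceeded Rorb in all 66. The 22 group means of Nr1d1 ran from 41.4 to 87.5 FPKM and those of Nr1d2 from 22.3 to 45.9 FPKM. Neighbours in this order rarely differed beyond their spread: 1 of 21 neighbouring pairs of Nr1d1 groups lay further apart than the larger of their SDs, and 0 of 21 for each of Nr1d2, Rora and Rorb. Because these are bulk punches, fewer cells of a type and less RNA per cell cannot be told apart.

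The libraries were not uniform, and this touched each receptor gene differently. The sum of FPKM per library ran from 364078 to 690048, 12496 to 13028 genes reached 1 FPKM, and depth relative to the median library, from the spacing of low values, ran from 0.381 to 1.73. Read totals are unknown. On the first axis of variation within groups, which held 43.6% of that variance, 13 libraries stood apart with scores of 44.3 to 56.1 against −35.9 to 15.1 in the other 53. None of the 13 was taken at ZT3 or ZT11, and 10 of them were taken at ZT19 or ZT23. In 10 libraries the summed level of 5 thalamic neuron markers (Slc17a6, Tcf7l2, Lhx9, Rgs16 and Prkcd) was at least 50 FPKM, between 58.8 and 352 FPKM, against 5.10 to 48.9 FPKM in the other 56. Of these 5 markers, only Lhx9 was listed at 0 in any library, in 8 of them. The striatal identity of the punches was visible in every library, with the spiny neuron markers Drd1 and Ppp1r1b never under 56.7 and 609 FPKM. Drd2, the gene named by the knockout, did not separate the genotypes at 99.1 to 304 FPKM in WT and 78.0 to 375 FPKM in iMSN-D2RKO (saline level difference −0.02 ± 0.17 on the log2 scale, limma adjusted p = 0.98). The gene total sums all exons and the floxed part is not given, so it does not check the genotype label.

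In WT mice Nr1d1 rose through the light phase and fell through the dark phase. With saline, the replicate libraries held 68.4, 67.1 and 66.8 FPKM at ZT3, 76.7, 85.3 and 65.5 at ZT7, and 72.3, 93.6 and 82.5 at ZT11. They then held 60.8, 67.7 and 69.6 FPKM at ZT15, 71.4, 62.6 and 42.0 at ZT19, and 43.5, 42.8 and 53.7 at ZT23. All 3 libraries at ZT11 were above all 3 at ZT23, and the ratio of these group means was 1.77. These were the highest and lowest group means of the series, and the share of all genes separated between such groups was not counted. A 24 h cosine fitted to log2(FPKM + 1) had an amplitude of 0.35 ± 0.07 (SE) with its crest at ZT9.65 (limma F test, adjusted p = 0.0308). JTK_CYCLE, an exact rank test for rhythm, also called Nr1d1 with a crest at ZT11 (p corrected within the gene = 0.00371, called under 0.01). Its Benjamini-Hochberg value over all genes was 0.0601. Leaving out 1 library ended the JTK_CYCLE call in 7 of 18 cases (exact corrected p up to 0.0154) and the cosine call in 5 of 18 (limma adjusted p up to 0.0752). Leaving out a replicate throughout ended the JTK_CYCLE call for replicates 2 and 3 (0.208 and 0.0499) and the cosine call for replicates 1 and 2 (0.195 and 0.377). Nr1d1 was the only one of the 4 called by either test in this series, against a background of 9.81% of genes called by JTK_CYCLE and 14.1% by the cosine fit.

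After cocaine, the WT rhythm of Nr1d1 was called again. The libraries held 86.8, 91.0 and 84.7 FPKM at ZT7, 79.7, 80.5 and 80.4 at ZT11, and 79.1, 76.3 and 95.2 at ZT15. They held 60.6, 46.8 and 62.7 FPKM at ZT19 and 42.3, 43.1 and 50.5 at ZT23. The level thus stayed at 76.3 FPKM or more from ZT7 to ZT15 in all 9 libraries and was at 62.7 FPKM or less in the 6 libraries that followed. The share of all genes separated in this way was not counted. The cosine amplitude was 0.44 ± 0.07 with its crest at ZT10.2 (limma adjusted p = 0.0224) and the JTK_CYCLE corrected p was 1.90e-04 (crest ZT11, Benjamini-Hochberg value 0.0348). Nr1d1 was again the only member called, where 7.6% of genes were called by JTK_CYCLE and 14.6% by the cosine fit. Without the set-apart libraries neither WT cocaine call was kept (exact JTK_CYCLE corrected p = 0.0128, limma adjusted p = 0.177). The cosine call was also lost with the library score as a covariate (adjusted p = 0.0800), without the ZT19 library of replicate 1 (0.0559) and without replicate 1 or 3 throughout (0.258 and 0.170). The JTK_CYCLE call was lost without replicate 1 or 2 throughout (exact corrected p = 0.0286 and 0.0156).

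In iMSN-D2RKO mice no member was called by either test, and Nr1d1 had fitted amplitudes of 0.41 with saline and 0.37 with cocaine. With saline the libraries held 68.5, 69.2 and 67.5 FPKM at ZT3, 112.9, 58.9 and 57.5 at ZT7, and 76.1, 67.7 and 74.3 at ZT11. They held 49.9, 73.1 and 53.8 FPKM at ZT15, 53.7, 37.2 and 46.4 at ZT19, and 37.4, 40.6 and 53.2 at ZT23. The 112.9 FPKM at ZT7, the highest Nr1d1 value of the series, came from the library with the highest FPKM sum (690048), which also had the lowest Rora (1.61 FPKM) and Rorb (0.772 FPKM). The amplitude was 0.41 ± 0.09 with a crest at ZT8.38 (limma adjusted p = 0.182), and the JTK_CYCLE corrected p was 0.0154, where the Dixon criterion had removed 1 value. The background of calls was itself low, at 2.58% by JTK_CYCLE and 0.00707% (1 gene, Ciart) by the cosine fit.

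With cocaine, iMSN-D2RKO libraries held 58.5, 67.4 and 57.0 FPKM of Nr1d1 at ZT7, 67.3, 86.3 and 73.5 at ZT11, and 50.5, 45.7 and 67.3 at ZT15. They held 42.3, 38.9 and 43.1 FPKM at ZT19 and 55.0, 42.0 and 43.5 at ZT23. The group at ZT11, with the highest mean, lay wholly above the groups at ZT19 and ZT23, with the lowest means. The share of all genes separated between such groups was not counted. The amplitude was 0.37 ± 0.07 with a crest at ZT8.04 (limma adjusted p = 0.222), and the JTK_CYCLE corrected p was 0.0106. The backgrounds were 1.09% of genes by JTK_CYCLE and 0% by the cosine fit, where 568 of 13944 genes were under 0.05 before adjustment.

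**Figure D1:**
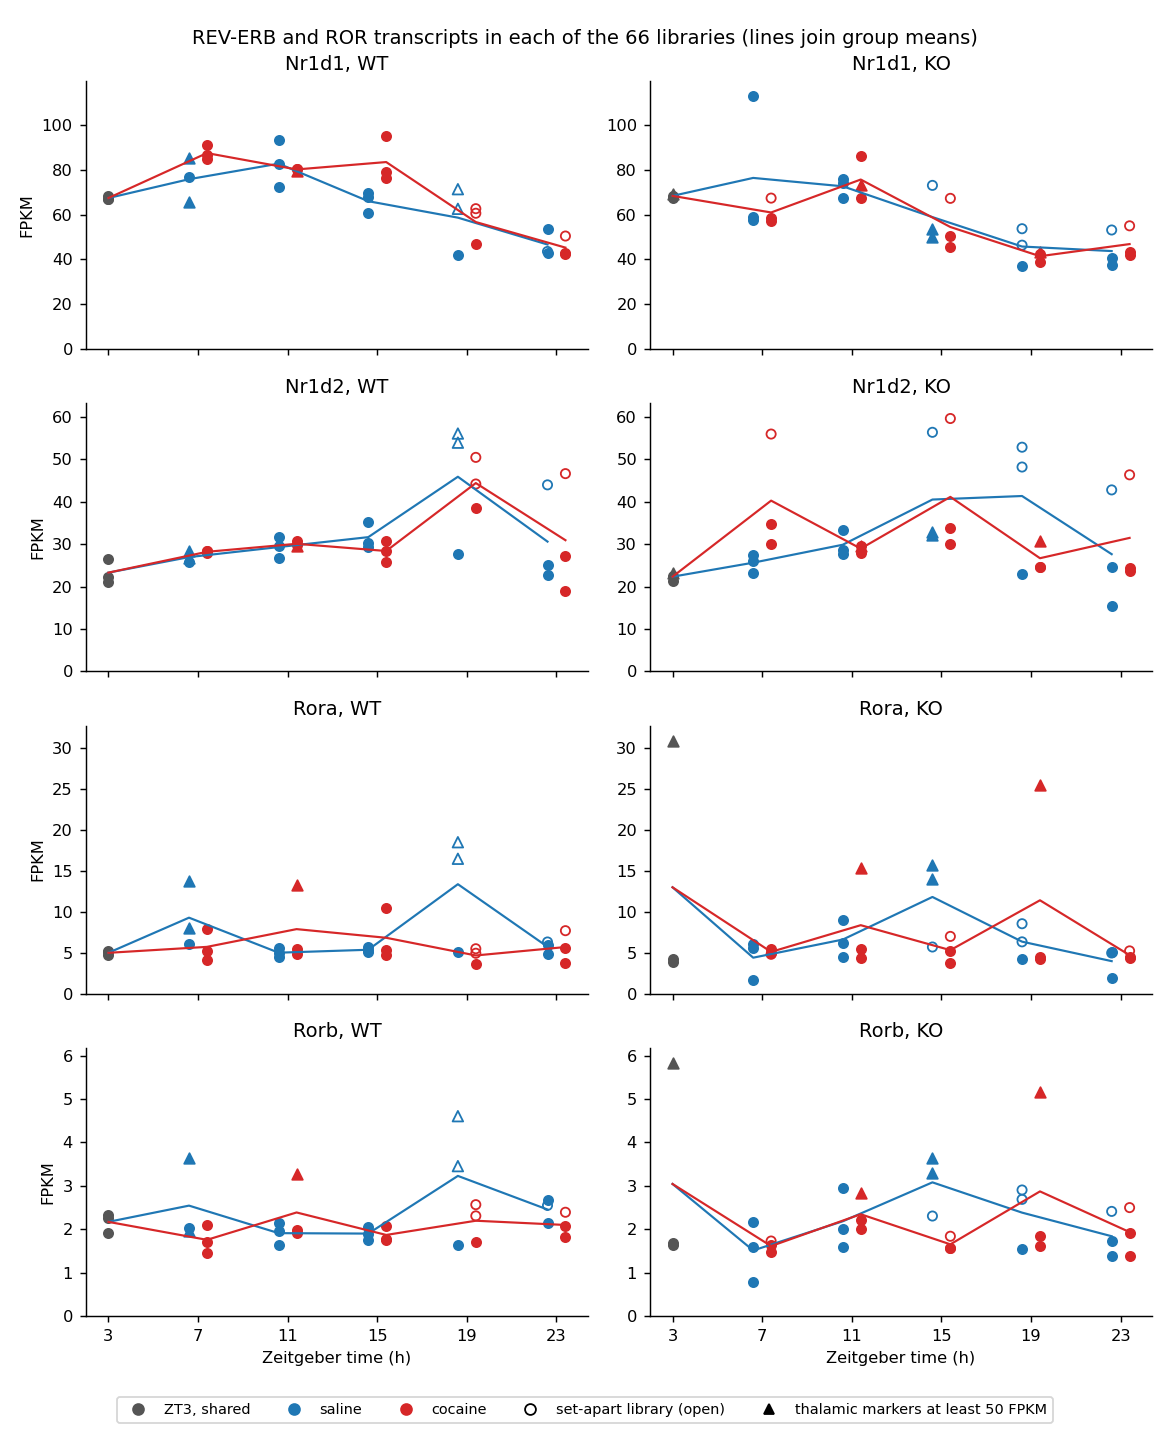
FPKM of Nr1d1, Nr1d2, Rora and Rorb (rows) against zeitgeber time in WT (left) and iMSN-D2RKO mice (KO, right), 1 point per library, with lines joining the means of 3 libraries. Open symbols are the 13 set-apart libraries and triangles the 10 libraries with thalamic markers of at least 50 FPKM: Nr1d1 is lowest at ZT19 and ZT23, open symbols lie at the top of each Nr1d2 group, and the highest Rora values are triangles.

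The group mean of Nr1d2 was lowest at ZT3 and highest at ZT15 or ZT19 in each series. In WT mice the libraries held 26.4, 21.2 and 22.2 FPKM at ZT3 and, with saline, 25.9, 26.7 and 28.3 at ZT7, 31.6, 29.6 and 26.7 at ZT11, and 35.3, 30.3 and 29.3 at ZT15. At ZT19 they held 56.1, 53.9 and 27.7 FPKM and at ZT23 43.99, 22.8 and 24.98. The spread within the last 2 groups was wide, and their high values (56.1, 53.9 and 43.99 FPKM) were those of set-apart libraries. The cosine amplitude was 0.32 ± 0.10 with a crest at ZT17.5 (limma adjusted p = 0.0729), and the JTK_CYCLE corrected p was 0.0269. Without the set-apart libraries, which left 1 library at ZT19 and 2 at ZT23, both tests called Nr1d2. The highest group mean was then 31.7 FPKM at ZT15, 1.36 times that at ZT3.

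After cocaine, WT libraries held 28.0, 28.3 and 28.3 FPKM of Nr1d2 at ZT7, 29.7, 30.8 and 29.8 at ZT11, and 30.9, 25.9 and 28.4 at ZT15. They held 44.2, 38.6 and 50.5 FPKM at ZT19 and 27.3, 18.9 and 46.6 at ZT23. Here the ZT19 group lay wholly above ZT3 to ZT15, including its 1 library outside the set-apart ones (38.6 FPKM). The share of all genes separated in this way was not counted. The fit over the day was not called (amplitude 0.27 ± 0.11, limma adjusted p = 0.165). The 38.6 FPKM library had the highest library score (15.1) of the 53 not set apart. Across those 53, Nr1d2 rose with the score (Pearson's r = 0.611), and across the 13 set-apart libraries r was −0.479. The score was computed from genes that include Nr1d2, so both values are description and not a test. In iMSN-D2RKO mice the ZT3 libraries held 21.3, 23.2 and 22.5 FPKM of Nr1d2. With saline they held 23.2, 26.1 and 27.5 FPKM at ZT7, 33.3, 28.6 and 27.7 at ZT11, 32.3, 56.4 and 32.9 at ZT15, 52.9, 23.003 and 48.2 at ZT19, and 24.6, 15.5 and 42.8 at ZT23. With cocaine they held 34.7, 56.0 and 30.1 FPKM at ZT7, 29.5, 27.8 and 29.6 at ZT11, 30.1, 33.7 and 59.7 at ZT15, 24.5, 24.7 and 30.8 at ZT19, and 46.4, 24.3 and 23.8 at ZT23. Each value above 40 FPKM in these series was from a set-apart library. The iMSN-D2RKO amplitudes were 0.41 ± 0.13 with saline (limma adjusted p = 0.182) and 0.22 ± 0.13 with cocaine (limma adjusted p = 1.0). With the library score as a covariate, Nr1d2 was called in both (limma adjusted p = 0.0489 and 0.0212). Over deviations from the group means, Nr1d2 and the score correlated at r = 0.958. Because the score was drawn in part from Nr1d2, these calls are not independent of it.

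Within groups, the REV-ERB genes moved with the set-apart libraries. Each set-apart library was compared with the libraries of its group that were not set apart. At ZT19 in WT saline, WT cocaine and iMSN-D2RKO saline this was only 1 library. Nr1d2 was above all of those libraries in 13 of 13 cases, with a median ratio of 1.93 to their mean. Nr1d1 was above them in 12 of 13 with a median ratio of 1.34. Thra, which shares bases with Nr1d1, was below the libraries not set apart in 13 of 13 (median ratio 0.705), and Drd2 was above them in 13 of 13 (median ratio 1.90). The axis was computed from 9584 genes, these among them, so the counts are not independent of how the libraries were chosen. The share of all genes above or below in as many set-apart libraries was not counted. The Nr1d1 to Nr1d2 ratio had a median of 1.19 in the set-apart libraries and 2.32 in the other 53. Both libraries in which Nr1d2 exceeded Nr1d1 were set apart. The labels name no batch or handling difference for the set-apart libraries. Why they stand apart, and its part in the Nr1d2 levels, was not tested.

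Rora and Rorb had no daily pattern that passed either test in any series in the reported setting. Without replicate 3 throughout, both tests called Rorb in WT saline (exact JTK_CYCLE corrected p = 0.00805, limma adjusted p = 0.0483), where JTK_CYCLE called 5.69% of all genes. At a threshold of 0.05, JTK_CYCLE called Rora in iMSN-D2RKO saline (exact corrected p = 0.0419), as it did 11.3% of all genes. In WT saline libraries Rora held 4.65, 5.25 and 5.02 FPKM at ZT3, 6.00, 8.02 and 13.8 at ZT7, 5.56, 4.51 and 4.90 at ZT11, 5.29, 5.65 and 5.10 at ZT15, 18.5, 16.4 and 5.12 at ZT19, and 6.30, 5.98 and 4.87 at ZT23. The high values at ZT7 and ZT19 were those of libraries with high thalamic markers. Over the 66 libraries Rora ran from 1.61 to 30.8 FPKM, a 19.2-fold range, and over the 56 libraries under 50 FPKM of thalamic markers from 1.61 to 10.4 FPKM. Rorb ran from 0.772 to 5.83 FPKM, and in the same 56 libraries to 2.96 FPKM. Cosine amplitudes lay between 0.02 and 0.32 for Rora and between 0.03 and 0.17 for Rorb, with limma adjusted p from 0.436 to 1.0.

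The ROR genes followed the thalamic markers across libraries. Each library with high thalamic markers was compared with the libraries of its group under 50 FPKM of these markers. In WT saline at ZT7 and ZT19 and in iMSN-D2RKO saline at ZT15 this was only 1 library. Rora was above all of those libraries in 10 of 10 cases (median ratio 2.97 to their mean) and Rorb in 9 of 10 (median ratio 1.74). Nr1d1 was above them in 5 cases and below in 4. The share of all genes above in as many of the 10 cases was not counted. The 2 highest libraries were iMSN-D2RKO replicate 2 at ZT3 (Rora 30.8, Rorb 5.83 FPKM, thalamic markers 352 FPKM) and iMSN-D2RKO cocaine replicate 3 at ZT19 (Rora 25.4, Rorb 5.16 FPKM, thalamic markers 310 FPKM). Their group mates held 3.87 to 4.52 FPKM of Rora. Across the 53 libraries that did not stand apart, Rora correlated with the summed markers with Pearson's r = 0.879 and Spearman's rho = 0.497 (permutation p = 1e-05, the smallest they can give, and 2.8e-04; adjusted over 13 relations 2.89e-05 and 5.03e-04). Without the 2 libraries farthest from the median marker level r was 0.813. For Rorb these values were r = 0.831, rho = 0.485 and, without those 2 libraries, r = 0.733. In the 13 set-apart libraries r was 0.916 for Rora and 0.740 for Rorb, and without 2 libraries 0.583 and 0.02, so that the Rorb relation there rests on those libraries. Among the 56 libraries under 50 FPKM, r fell to 0.487 for Rora and 0.361 for Rorb. The part of tissue outside the nucleus accumbens in the Rora and Rorb levels was not tested beyond these values.

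**Figure D2:**
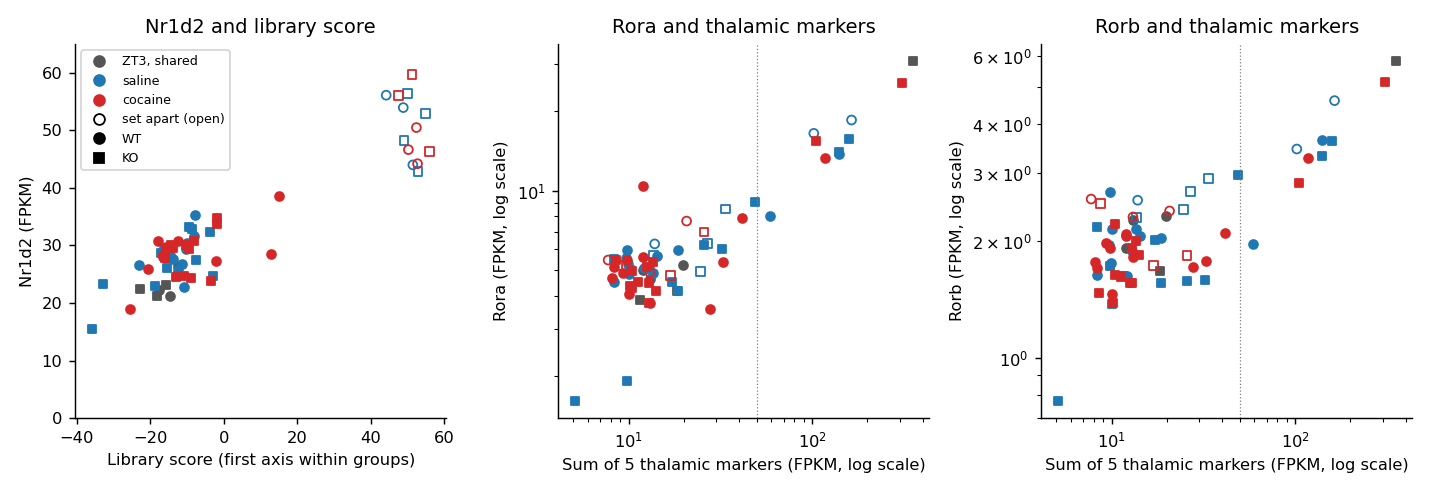
Left, Nr1d2 (FPKM) against the library score on the first within-group axis. Middle and right, Rora and Rorb against the summed FPKM of 5 thalamic markers, both axes logarithmic, with the dotted line at 50 FPKM. Each point is 1 of 66 libraries, coloured by treatment, with circles for WT and squares for iMSN-D2RKO. The 13 open symbols lie apart at 42.8 to 59.7 FPKM of Nr1d2, and the 2 libraries over 300 FPKM of thalamic markers have the highest Rora and Rorb.

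Cocaine was compared with saline within each genotype to ask whether the injection changed these receptors. No member passed any test. Averaged over ZT7 to ZT23, Nr1d1 after cocaine was 0.09 ± 0.07 log2 units above saline in WT mice (95% interval −0.06 to 0.24) and 0.07 below in iMSN-D2RKO mice (−0.07 ± 0.09, interval −0.26 to 0.12). For Nr1d2 the differences were −0.01 ± 0.11 in WT and 0.05 ± 0.16 in iMSN-D2RKO mice, with intervals of −0.23 to 0.21 and −0.28 to 0.37. The WT intervals correspond to folds of 0.959 to 1.18 for Nr1d1 and 0.854 to 1.15 for Nr1d2. Rora and Rorb had wider intervals, in WT −0.62 to 0.16 and −0.32 to 0.06. Across all genes 0% were called in either genotype (365 in WT and 425 in iMSN-D2RKO mice were under an unadjusted p of 0.05).

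At ZT7, the first time after the injection, Nr1d1 in WT mice was 0.21 ± 0.18 log2 units above saline (limma adjusted p = 1.0). In iMSN-D2RKO mice it was −0.25 ± 0.18 (adjusted p = 0.376), with the saline group holding the 112.9 FPKM library; without replicate 1, 2 or 3 throughout, this difference took values from −0.47 to 0.09. Nr1d2 in iMSN-D2RKO mice was 0.59 ± 0.30 log2 units higher with cocaine (adjusted p = 0.224), and its 3 cocaine libraries (30.1 to 56.0 FPKM) lay above its 3 saline ones (23.2 to 27.5 FPKM), as did 7.93% of all genes. The 56.0 FPKM library is a set-apart one, and without the set-apart libraries this difference was 0.33 (adjusted p = 0.196). The share of genes called at ZT7 was 0.00683% in WT and 0.0137% in iMSN-D2RKO mice. In the test over all 5 time points it was 0.0205% in WT and 0% in iMSN-D2RKO mice (916 genes under an unadjusted p of 0.05), and the members' adjusted p were 1 in WT and 0.713 to 0.837 in iMSN-D2RKO mice.

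A few single groups were separated by treatment. In WT mice at ZT15, all 3 cocaine libraries held more Nr1d1 (76.3 to 95.2 FPKM) than the 3 saline ones (60.8 to 69.6 FPKM), a separation seen in this direction for 5.08% of genes. The 95.2 FPKM library had the lowest relative depth (0.381) and the lowest FPKM sum (364078) of the 66, and the others held 79.1 and 76.3 FPKM. In iMSN-D2RKO mice at ZT15, Rorb was lower with cocaine (1.56 to 1.84 FPKM) than with saline (2.304 to 3.63 FPKM), as were 2.55% of genes. In that saline group 2 of the 3 libraries had thalamic markers over 50 FPKM. The tests of a different rhythm after cocaine called 0% of genes in both genotypes (198 genes in WT and 789 in iMSN-D2RKO mice under an unadjusted p of 0.05). For Nr1d1 the difference between the fitted rhythms had an amplitude of 0.10 ± 0.11 in WT and 0.05 ± 0.12 in iMSN-D2RKO mice, and for Nr1d2 0.08 ± 0.20 and 0.48 ± 0.24 (limma adjusted p of 0.594 or more for all 4 members).

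The genotypes were compared within each treatment to ask whether the receptors differ with loss of D2R. After cocaine, Nr1d1 was lower in iMSN-D2RKO than in WT mice at ZT7, ZT15 and ZT19. The libraries ran from 57.0 to 67.4 FPKM in iMSN-D2RKO against 84.7 to 91.0 in WT mice at ZT7, from 45.7 to 67.3 against 76.3 to 95.2 at ZT15, and from 38.9 to 43.1 against 46.8 to 62.7 at ZT19. The 3 iMSN-D2RKO libraries lay below the 3 WT libraries at each of these times, and at ZT11 and ZT23 the groups overlapped. Separation in this direction was common among all genes at ZT19 (26.7%) and less so at ZT7 (8.32%) and ZT15 (6.95%). The log2 differences were −0.52 ± 0.18 at ZT7 (95% interval −0.88 to −0.15), −0.62 ± 0.18 at ZT15 (−0.98 to −0.25) and −0.43 ± 0.18 at ZT19 (−0.80 to −0.07), against −0.09 at ZT11 and 0.04 at ZT23. At ZT19, 2 of the 3 WT libraries (60.6 and 62.7 FPKM) and 0 of the 3 iMSN-D2RKO libraries were set apart, and the remaining WT library held 46.8 FPKM against an iMSN-D2RKO mean of 41.4 FPKM. At ZT7 and ZT15 the highest iMSN-D2RKO library (67.4 and 67.3 FPKM) was the set-apart one, and no WT library was. The highest WT library at ZT15 (95.2 FPKM, replicate 3) had the lowest relative depth of the 66 (0.381).

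Tested over the 5 cocaine time points together, the genotype effect on Nr1d1 was called (limma F test, adjusted p = 0.0350), the only call among the 4 members. The background for this test was 4.19% of genes (613 of 14643). The call was lost without the libraries high in thalamic markers (adjusted p = 0.094), without replicate 1, 2 or 3 (0.149, 0.285 and 0.325) and without any of 13 of the 66 single libraries, the highest value being 0.0977 without WT cocaine replicate 3 at ZT15. Without the set-apart libraries it held (adjusted p = 0.00338). All 13 such single libraries belonged to the cocaine groups at ZT7, ZT15 and ZT19. The mean difference over the 5 time points was −0.32 ± 0.08 on the log2 scale (95% interval −0.48 to −0.16), a level 20.1% lower, but it did not pass over all genes (limma adjusted p = 0.244), where 0.0487% of genes did. With the library score as a covariate it was −0.33 and passed (limma adjusted p = 0.0410), but the score was computed from genes that include Nr1d1.

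The other 3 members passed no genotype test after cocaine. The mean differences were 0.04 ± 0.14 for Nr1d2, 0.03 ± 0.21 for Rora and −0.02 ± 0.09 for Rorb, with intervals of −0.25 to 0.33, −0.40 to 0.46 and −0.22 to 0.17. Nr1d2 separated by genotype in opposite directions at different times. It was above WT (28.0 to 28.3 FPKM) at ZT7 in iMSN-D2RKO libraries (30.1 to 56.0 FPKM), as were 17.4% of genes, just below at ZT11 (27.8 to 29.6 against 29.7 to 30.8 FPKM; 4.1% of genes), and below at ZT19 (24.5 to 30.8 against 38.6 to 50.5 FPKM). At ZT19 the separation held for 26.7% of genes, and 2 of the 3 WT libraries and 0 of the 3 iMSN-D2RKO libraries were set apart.

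With saline no genotype difference was called for any member. Nr1d1 was −0.14 ± 0.08 log2 units lower in iMSN-D2RKO mice (95% interval −0.30 to 0.03, limma adjusted p = 0.577), and Nr1d2 −0.03 ± 0.12 (interval −0.26 to 0.21). The backgrounds were 0.189% of genes for the mean level and 0.123% for any time point. Nr1d1 overlapped between the genotypes at all saline times. Rora (5.68 to 15.7 against 5.10 to 5.65 FPKM) and Rorb (2.304 to 3.63 against 1.76 to 2.06 FPKM) were above WT at ZT15, as were 13.5% of genes, and 2 of those 3 iMSN-D2RKO libraries had high thalamic markers. At ZT3 all members overlapped between genotypes, with Nr1d1 at 67.4 ± 0.890 FPKM in WT and 68.4 ± 0.859 FPKM in iMSN-D2RKO mice (SD, n = 3). The tests of a different rhythm between genotypes called 0% of genes with saline (355 under an unadjusted p of 0.05) and 0% with cocaine (895), where Nr1d1 had a difference amplitude of 0.23 ± 0.10 (limma adjusted p = 0.570).

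**Figure D3:**
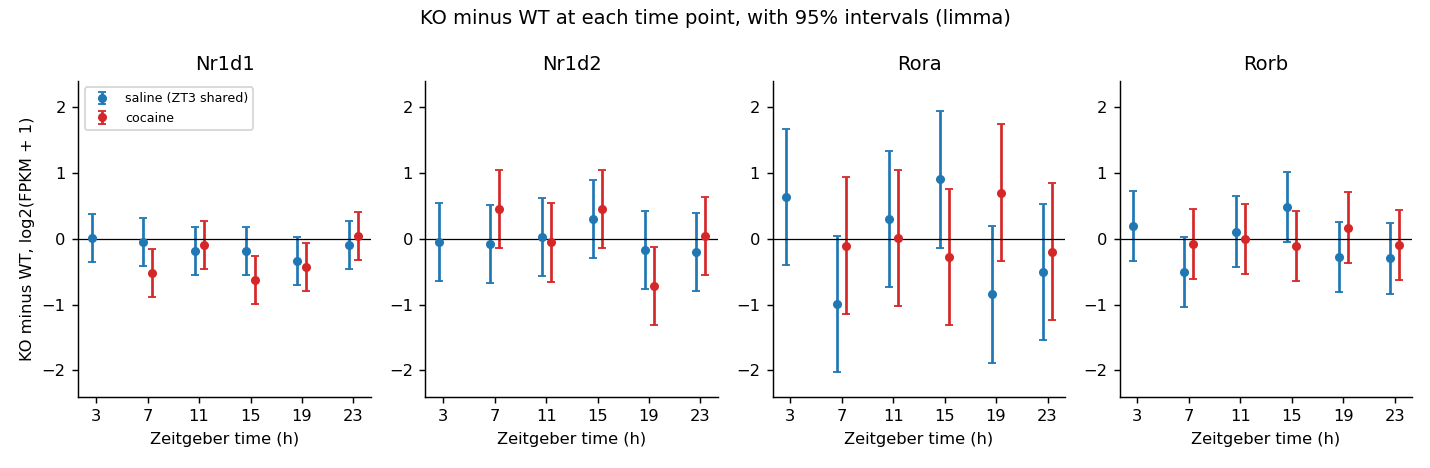
Log2(FPKM + 1) difference, iMSN-D2RKO (KO) minus WT, at each zeitgeber time for each member, with 95% intervals from limma; blue is saline (ZT3 shared) and red cocaine. For Nr1d1 the red points at ZT7, ZT15 and ZT19 (−0.52, −0.62 and −0.43) have intervals below 0, and the Rora intervals are the widest.

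Whether cocaine acted differently on the receptors in the genotypes was tested as the interaction at the 5 time points. No gene was called (0%; 519 under an unadjusted p of 0.05), and the members' limma adjusted p were 0.843 to 0.844. The called genotype effect on Nr1d1 with cocaine and the uncalled one with saline were therefore not shown to differ.

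The RORE-controlled clock genes are the direct output of these receptors, and their lists, like the members, were chosen with results of these data known. Of 5 (Arntl, Clock, Npas2, Cry1 and Nfil3), the cosine fit called Arntl in WT saline (amplitude 0.37 ± 0.06, crest ZT21.3) and Arntl (0.48 ± 0.09, ZT21.2) and Nfil3 (0.36 ± 0.08, ZT23.2) in WT cocaine. Nfil3 encodes a repressor that acts on D-boxes. The cosine fit called no gene of this list in iMSN-D2RKO mice, where Arntl had amplitudes of 0.36 ± 0.10 (crest ZT21.9, limma adjusted p = 0.182) and 0.34 ± 0.09 (ZT21.1, 0.741). The Arntl crest thus fell about opposite to that of Nr1d1 in all series, and over the 22 group means their Pearson correlation was −0.815, a description over groups that share libraries and times. Over the 66 libraries it was −0.502, and over deviations from the group means it was 0.337, of the opposite sign. The median amplitude of the list was 0.25 and 0.29 in WT saline and cocaine and 0.22 and 0.24 in the same treatments of iMSN-D2RKO mice, beside 0.16, 0.20, 0.19 and 0.08 over all genes. The cosine fit called 14.1% and 14.6% of all genes in WT saline and cocaine, and 0.00707% and 0% in iMSN-D2RKO mice. JTK_CYCLE called Arntl and the repressor gene Cry1 in WT saline, Arntl in WT cocaine and Nfil3 (exact corrected p = 7.55e-04, crest ZT21) in iMSN-D2RKO cocaine. It called 9.81% and 7.6% of all genes in WT saline and cocaine, and 2.58% and 1.09% in iMSN-D2RKO mice.

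Of 4 further REV-ERB target genes, Elovl3 was too low to test. Fabp7, a brain fatty acid binding protein made in astrocytes, was called by the cosine fit in WT saline (0.50 ± 0.07, crest ZT4.64) and WT cocaine (0.70 ± 0.18, ZT2.97), and Lpl, lipoprotein lipase, in WT saline (0.34 ± 0.09, ZT17.6). JTK_CYCLE called Fabp7 in WT saline. Insig2 was called in no series. The shares of all genes called were those given above for the RORE-controlled genes.

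Among 10 E-box and D-box clock genes, which share the BMAL1 input of Nr1d1, Dbp was close to Nr1d1 in phase. Dbp, a D-box activator, had its crest at ZT11.0 in WT saline (0.52 ± 0.12) and at ZT10.4 in WT cocaine (0.73 ± 0.11). The cosine fit called 4 of 10 in WT saline (Per2, Per3, Dbp and Hlf) and 4 of 10 in WT cocaine (Per3, Dbp, Tef and Ciart). In iMSN-D2RKO saline it called Ciart (0.72 ± 0.09, crest ZT11.4, limma adjusted p = 0.00675) and in iMSN-D2RKO cocaine none of the 10. Of all genes it called 14.1% and 14.6% in WT saline and cocaine, and 0.00707% and 0% in iMSN-D2RKO mice. JTK_CYCLE called 3 of 10 in WT saline (Per2, Per3 and Dbp), 2 in WT cocaine (Per3 and Dbp), 3 in iMSN-D2RKO saline (Per2, Per3 and Ciart) and 2 in iMSN-D2RKO cocaine (Per3 and Ciart), beside 9.81%, 7.6%, 2.58% and 1.09% of all genes. Ciart encodes a repressor of the clock and is itself under E-box control. The list's median amplitudes were 0.33 and 0.39 in WT saline and cocaine and 0.30 and 0.20 in iMSN-D2RKO mice, beside 0.16, 0.20, 0.19 and 0.08 over all genes.

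Partners of the receptors came next. Of 5 co-repressor genes, Ncor1 was called by the cosine fit in WT saline (0.37 ± 0.10, crest ZT19.7), and by JTK_CYCLE Ncor1 in WT saline and Hdac3 in iMSN-D2RKO cocaine (crest ZT7, cosine amplitude 0.10 ± 0.03). None of 6 coactivator genes of the RORs was called by the cosine fit, with Crebbp reaching 0.45 ± 0.18 in WT cocaine (limma adjusted p = 0.177), and JTK_CYCLE called Ncoa3 in WT saline. Of 5 genes that control REV-ERB alpha turnover, Fbxw7, the ubiquitin ligase subunit that marks it for degradation, was called in WT saline (0.33 ± 0.07, crest ZT21.5) and WT cocaine (0.35 ± 0.07, ZT20.6) by the cosine fit, and JTK_CYCLE called Mycbp2 in WT saline. Of 7 heme synthesis genes, the cosine fit called none, and JTK_CYCLE called Alad in WT saline and WT cocaine. Over the 41 tested genes of these 7 lists, 9 were called by the cosine fit in WT saline, 8 in WT cocaine, 1 in iMSN-D2RKO saline and 0 in iMSN-D2RKO cocaine. Its shares of all genes were 14.1%, 14.6%, 0.00707% and 0%. JTK_CYCLE called 10, 4, 3 and 4 of the 41 in the same order, beside 9.81%, 7.6%, 2.58% and 1.09% of all genes. In every test of cocaine, genotype or their interaction 0 were called. Those tests called 0% to 0.189% of all genes, except 4.19% for the genotype effect at any time point with cocaine.

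**Figure D4:**
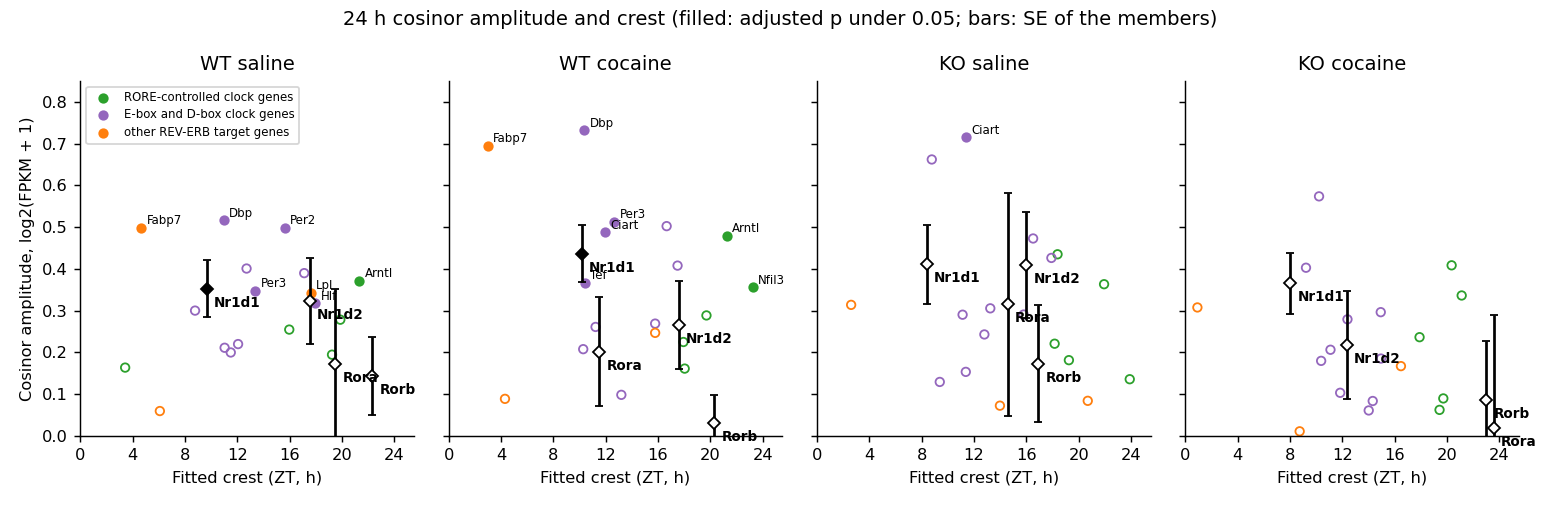
Amplitude of the 24 h cosine on the log2(FPKM + 1) scale against the fitted crest (ZT, h) in the 4 series (KO is iMSN-D2RKO), for the members (black diamonds with SE bars) and 3 lists of clock and target genes (coloured circles). Filled symbols had an adjusted p under 0.05: Nr1d1 is filled in WT saline (0.35) and WT cocaine (0.44), and in iMSN-D2RKO saline only Ciart (0.72) is.

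The genes whose 22 group means were most like those of each member were ranked among 9583 or 9584 genes with a mean of at least 5 FPKM, by Pearson's r of log2(FPKM + 1). For Nr1d1 they were Gpr146 (r = 0.898), Dbp (0.894), Tmem180, Tmem201 and 0610009O20Rik (0.867). For Nr1d2 they were Atxn3 (0.923), Ncapd3, Bhlhe41 (0.908), Fbxl5 and Tia1 (0.905). For Rora they were Plekhg1 (0.938), Adarb1, Prkcd (0.907), the joint row of Akap2, Pakap and Palm2, and Rgs16 (0.889), of which Prkcd and Rgs16 are thalamic markers of the list above. For Rorb they were Hspa12a (0.913), the same joint row, Kcnc2, Gabbr2 and Slc24a3 (0.873). Likeness for Nr1d1 was a matter of group means more than of single libraries (Dbp r = 0.606 over the 66 libraries), whereas for Nr1d2, Fbxl5 kept r = 0.926 over libraries and for Rora, Plekhg1 kept 0.936.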

How the data were processed

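RNA-seq was available for 66 distinct libraries, 3 per group, with the ZT3 libraries used by both treatments. According to the study's methods and the labels, stranded poly(A) libraries were sequenced single-end, processed with CASAVA 1.8.2, aligned with TopHat and Bowtie2 to UCSC mm10, and quantified with Cufflinks and Cuffnorm. The deposited values are FPKM per gene, as the authors normalized them. Totals of reads are not given, so precision rests on 3 libraries per group and on relative depth.

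FPKM were taken as log2(FPKM + 1), and a gene entered a test if any of its libraries reached 1 FPKM. JTK_CYCLE and its Dixon step used FPKM itself, except in the setting with the library score removed. JTK_CYCLE was rewritten in Python 3.11.15 (periods of 20 and 24 h, at most 1 value per gene and time point removed by the Dixon criterion, corrected p under 0.01). Cosine, level, time point and interaction models were fitted over all genes with limma 3.58.1 in R 4.3.3 and adjusted by the Benjamini-Hochberg method, called under 0.05. Both were tested on simulated data. Correlations used 100000 permutations, two-sided.

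The members, lists and tests were chosen with earlier results of these data known. Named genes are the 4 members, Thra, Drd2, the 5 genes most like each member, and the called genes of 7 lists, with up to 6 of the smallest p where few were called. Some listed genes are not reported here and entered no list count. Alternatives were the pseudocount, the filter on low values, median-of-ratios scaling, the Dixon step, the period, the JTK threshold, a replicate block, and leaving out replicates, single libraries or set-apart libraries. The covariate for, and the removal of, thalamic-marker-high libraries were added after the data were seen.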

Additional observations from a re-analysis of the deposited data

How the results depend on the processing

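The number of members called by JTK_CYCLE in WT saline was 2 at a threshold of 0.05 and 2 without the set-apart libraries, against 1, and 0 to 1 with a replicate or library left out. In WT cocaine it was 0 without the set-apart libraries, and 0 to 1 with a replicate or library left out. In iMSN-D2RKO saline, with 0 in the reported setting, it was 1 with a 24 h period only, 2 at a threshold of 0.05, 1 without the set-apart libraries, 2 with the library score removed, and 0 to 1 with a replicate or library left out. In iMSN-D2RKO cocaine it was 1, 2 and 1 under a 24 h period, a threshold of 0.05 and score removal, and 0 to 2 with a replicate or library left out. At a threshold of 0.05, JTK_CYCLE called 23.7% of all genes in WT saline, 11.3% in iMSN-D2RKO saline and 4.16% in iMSN-D2RKO cocaine. With a 24 h period only it called 3.96% and 1.19% in iMSN-D2RKO saline and cocaine, and with the score removed 1.89% and 2.75%. Without the set-apart libraries, 1 library was left at ZT19 in WT saline, WT cocaine and iMSN-D2RKO saline. Of the 18 single libraries of WT saline, leaving out 7 ended the JTK_CYCLE call of Nr1d1 (WT saline replicate 1 at ZT7, replicates 2 and 3 at ZT11, replicate 2 at ZT19 and each replicate at ZT23) and leaving out 5 ended its cosine call (replicates 1 and 2 at ZT7, replicates 2 and 3 at ZT11 and replicate 2 at ZT19).

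For the cosine fit, 2 members were called in WT saline without the set-apart libraries, with the thalamic covariate or with the replicate block, against 1 as reported, and 0 to 3 with a replicate or library left out. In WT cocaine 0 were called without the set-apart libraries or with the score covariate, and 0 to 1 with a replicate or library left out. With the score covariate 1 was called in iMSN-D2RKO saline, 2 in iMSN-D2RKO cocaine and 1 in the genotype level difference with cocaine. The score was computed from 9584 genes, Nr1d1 and Nr1d2 among them, so calls with it as a covariate or removed are not independent of it. The shares of all genes called by the cosine fit in these settings are not given here. The genotype effect at any time point with cocaine called 0 members without the libraries high in thalamic markers, and 0 to 1 with a replicate or library left out.

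Several differences that passed no test changed sign. The cocaine level difference in WT became 0.0152 for Nr1d2 without the set-apart libraries, 0.0105 with the thalamic covariate and 0.0675 without the thalamic-high libraries, and 0.0280 for Rora without the latter. In iMSN-D2RKO mice it became 0.0270 for Rorb with the thalamic covariate and −0.0208 for Rora without the thalamic-high libraries. The genotype level difference with saline became 0.11 for Rora and 0.0027 for Rorb without the set-apart libraries and 0.0938 for Nr1d2 without the thalamic-high ones. With cocaine it became −0.0279 with the thalamic covariate and −0.15 without the thalamic-high libraries for Rora. At ZT7 in WT the cocaine difference became 0.17 for Rora and 0.0157 for Rorb with the thalamic covariate, and in iMSN-D2RKO mice −0.0604 for Rorb with the score covariate.

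With a replicate or library left out, the ranges that crossed 0 were, for the cocaine level difference, −0.20 to 0.10 for Nr1d2 in WT, and −0.0297 to 0.112 for Nr1d2 and −0.169 to 0.225 for Rora in iMSN-D2RKO mice. For the genotype level difference they were, with saline, −0.184 to 0.0766 for Nr1d2, −0.229 to 0.0127 for Rora and −0.120 to 0.0187 for Rorb, and with cocaine −0.0339 to 0.109, −0.131 to 0.179 and −0.0950 to 0.0333. At ZT7 in iMSN-D2RKO mice they were −0.474 to 0.0908 for Nr1d1, −0.20 to 0.60 for Rora and −0.13 to 0.28 for Rorb. The cause of these changes was not tested.

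Replicate numbers did not pair the samples: deviations of same-numbered libraries correlated with a mean r of −0.003 over 693 pairs, and others with 0.003 over 1386. The replicate block changed 1 count, the 2 members called in WT saline by the cosine fit, where Nr1d2 reached an adjusted p of 0.0465. Without read totals, the counting error of Rora and Rorb, the lowest of the family, is unknown.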
